A study of Mus musculus with 75 samples.

Results

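The genes described here are 8 basement membrane genes, chosen by symbol from their established roles, with earlier results of these data known: the laminin chain genes Lama1, Lamb1 and Lamc1, the collagen IV chain genes Col4a1 and Col4a2, and Nid1, Hspg2 and Sparc. They are 8 of 52535 entries in each of the receptor knockout and overexpression tables and 8 of 52636 in the enhancer deletion table, and all 8 passed the filter on low counts in each table. The cells were E14 mouse embryonic stem cells, grown without feeder cells on gelatin, taken out of LIF and 2i and treated with 2 µM retinoic acid (RA) for 24 h. Every library, control or mutant, carries that treatment, and no RNA from before RA was analysed here.

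Libraries were deposited in 3 sets. The knockout set holds Rarα-KO, Rxrα-KO and RARX-DKO cells (which lack both receptors, per the name) and their wild type, WT (RARX), with 2 libraries each. The overexpression set holds Rarα-OE and Rxrα-OE cells and the control V-OE, with 2 libraries each. The enhancer set holds Cyp26-E1-KO cells, Cyp26-E2 cells and their wild type, WT (Cyp26), with 3 libraries each. Titles of the Cyp26-E2 libraries do not carry the letters KO, and they were read as a deletion. The mutant columns of the enhancer table carry the codes Ac and b and were assigned to E1 and E2 through codes in other files of the series, so the names of those 2 groups are less sure than the rest. The sources used here do not say whether libraries of a group came from separate cultures or clones, so p-values measure the spread between these libraries, which may be technical. They also do not say how the receptors were overexpressed or what V-OE carried.

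Basement membranes are thin sheets of extracellular matrix that lie under epithelia. Laminin heterotrimers of an α, a β and a γ chain polymerise on the cell surface, collagen IV forms a second network, and nidogen and perlecan bridge the networks. In the mouse conceptus the parietal endoderm secretes Reichert's membrane, which is unusually rich in laminin-111 (the trimer of the Lama1, Lamb1 and Lamc1 products), collagen IV and SPARC. Mouse F9 teratocarcinoma cells treated with RA are the classic culture model in which these genes were studied, and in them retinoic acid receptors act with RXR partners on DNA. CYP26 enzymes break RA down, and the enhancers deleted here are named for Cyp26.

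Positions of the 8 genes are on mm10, from the GENCODE annotation. Lama1 lies on the plus strand at chr17:67697259-67822647, Lamb1 on the plus strand at chr12:31265234-31329644, and Lamc1 on the minus strand at chr1:153218922-153332786. Col4a1, at chr8:11198423-11312826 on the minus strand, and Col4a2, at chr8:11312805-11449287 on the plus strand, are transcribed away from each other. Nid1 lies on the plus strand at chr13:13437551-13512269, Hspg2 on the plus strand at chr4:137468769-137570630, and Sparc on the minus strand at chr11:55394500-55423183. Gene models of Col4a1 and Col4a2 overlap by 22 bases on opposite strands, which is 0.295% of the exon bases of Col4a1 and 0.332% of those of Col4a2. The strand setting of the counting is not given in the sources used here. Other genes that share exon bases with a member, Gm15419 with Col4a2 and Gm48682 with Nid1, had at most 3 and 4 reads in any enhancer library.

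RefSeq promoter windows of 300 bases (GRCm38.p6) were found for 6 of the 8 genes. The 78 bases that the windows of Col4a1 and Col4a2 have in common are shown because the pair is transcribed from it in opposite directions and its levels moved closely together, and the first 250 bases of the Lamb1 window, which run past the start of its gene model, because it was, with Lama1, among the most responsive laminin genes. Both stretches are given on the plus strand, chr8:11312777-11312854 for the collagen pair and chr12:31265043-31265292 for Lamb1. Capitals mark the 22 bases covered by both gene models in the first, and CCGCCC, the reverse complement of GGGCGG, in the second.
Col4a1 and Col4a2: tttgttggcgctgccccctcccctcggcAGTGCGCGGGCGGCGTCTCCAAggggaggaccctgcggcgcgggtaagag
Lamb1: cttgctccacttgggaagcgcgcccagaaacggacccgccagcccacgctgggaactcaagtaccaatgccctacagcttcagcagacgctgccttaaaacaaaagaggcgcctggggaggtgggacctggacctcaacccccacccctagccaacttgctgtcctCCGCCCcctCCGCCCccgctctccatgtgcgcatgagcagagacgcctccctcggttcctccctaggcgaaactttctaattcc
Windows were searched on both strands for GGGCGG, the core of GC boxes. They were searched for AGGTCA and for the related GGGTCA, single binding elements of nuclear receptors, and for direct repeats of these elements with 2 or 5 bases between them. They were also searched for AGATAA and for the related TGATAA, motifs of GATA factors. GGGCGG was present in 5 of the 6 windows, with 5 matches in Hspg2, 3 in Col4a2, 2 in Lamb1 and 1 each in Col4a1 and Nid1, and in 35.7% of all 32851 windows of this length. The Col4a1 match lies in the 22 bases covered by both gene models and is also 1 of the 3 in Col4a2. GGGTCA occurred once, in Sparc, and in 13.7% of all windows. The Sparc window, chr11:55420031-55420330, lies inside the GENCODE gene model given above and away from the start of that model. No match in the 6 windows was found for AGGTCA (16.3% of all windows), for AGATAA (11.2%), for TGATAA (9.05%) or for the direct repeats (0.0396% with 2 bases between and 0.0304% with 5). A match is only a run of letters, and these windows leave out all sequence farther from the start.

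Depth was 7408691 to 13052102 gene counts per library in the knockout set, 7835519 to 11453063 in the overexpression set and 28397794 to 33601996 in the enhancer set. The targeted genes were examined as a check of the labels. Rara had 5.35 and 4.37 CPM (read counts scaled to library size by TMM) in Rarα-KO and 5.57 and 6.53 CPM in RARX-DKO, against 100.1 and 108.7 CPM in WT (RARX). Rxra had 18.4 and 16.1 CPM in Rxrα-KO and 13.6 and 27.6 CPM in RARX-DKO, against 38.2 and 46.0 CPM in WT (RARX), so Rxra transcript was still counted. The log2 fold change of Rxra was -1.29 (adjusted p = 0.0264) in Rxrα-KO and -1.04 (adjusted p = 0.0654, not passed) in RARX-DKO. Rara had 104.5 and 111.0 CPM in Rarα-OE, against 51.6 and 52.4 CPM in V-OE. Rxra had 202.1 and 204.3 CPM in Rxrα-OE, against 45.7 and 42.9 CPM in V-OE. Cyp26a1 had 55.8, 33.8 and 58.8 CPM in Cyp26-E1-KO and 386.7, 362.9 and 391.1 CPM in Cyp26-E2, against 378.3, 367.8 and 385.3 CPM in WT (Cyp26). Cyp26c1 had 1.24, 2.05 and 0.951 CPM in Cyp26-E1-KO and 12.7, 9.78 and 12.3 CPM in Cyp26-E2, against 16.2, 16.4 and 10.8 CPM in WT (Cyp26). Both genes overlapped wild type in Cyp26-E2, so they do not check that label or its reading as a deletion.

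The label parietal endoderm was set against markers. Thbd (thrombomodulin), a defining marker, was at or near 0 in every group, with at most 0.845 CPM in a Cyp26-E1-KO library and 0.169 CPM in an Rxrα-OE library. Plat (tissue plasminogen activator), another, had 21.5 to 23.3 CPM in Rxrα-OE, against 0.714 to 2.29 CPM in V-OE. Pth1r, the receptor of PTHrP, had 62.6 to 65.3 CPM in Rxrα-OE and 4.72 to 6.66 CPM in Rarα-OE, against 6.16 to 6.83 CPM in V-OE. Afp and Ttr, defining genes of visceral endoderm, stayed at or below 0.521 and 1.41 CPM in every library. The libraries are bulk RNA from cells in which pluripotency genes were still abundant, so the 8 genes are described as basement membrane genes, and no library is called parietal endoderm. In bulk RNA, more cells of a type and more RNA per cell cannot be told apart.

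Per exon length, Sparc, Lamc1 and Hspg2 were the most abundant of the 8 genes outside the Rxrα-OE libraries. In Rxrα-OE Col4a1, with 203.1 and 205.3 TPM, stood above Lamc1, with 200.0 and 192.6 TPM, and Col4a2, with 135.4 and 140.8 TPM, above Nid1, Lamb1 and Lama1. On the TPM scale (read counts per exon length, scaled to a common total per library) Lamc1 was the highest of the 8 genes in 13 of 23 libraries and Sparc in the other 10, while Lama1 was lowest in 12 and Col4a2 in 11. In the knockout set the TPM of Sparc ran from 135.3 to 208.0, that of Lamc1 from 114.4 to 233.9 and that of Hspg2 from 99.0 to 151.9. These 3 ranges overlap. In that set Lama1 ran from 11.1 to 24.2 TPM, Col4a2 from 19.2 to 28.3, Lamb1 from 16.7 to 37.5 and Col4a1 from 23.5 to 38.5, each range overlapping the next, while Nid1, from 60.1 to 105.3, lay above these 4 and overlapped Hspg2. In the enhancer set Lamc1, with 265.6 to 356.3 TPM, lay above Sparc, with 106.9 to 144.0 TPM, in every library. Laminin chains were therefore not at equal transcript levels: Lamc1 exceeded Lamb1 per length by 5.17 to 7.01 times in the knockout set, 3.18 to 8.07 times in the overexpression set and 4.05 to 5.88 times in the enhancer set.

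**Figure D1:**
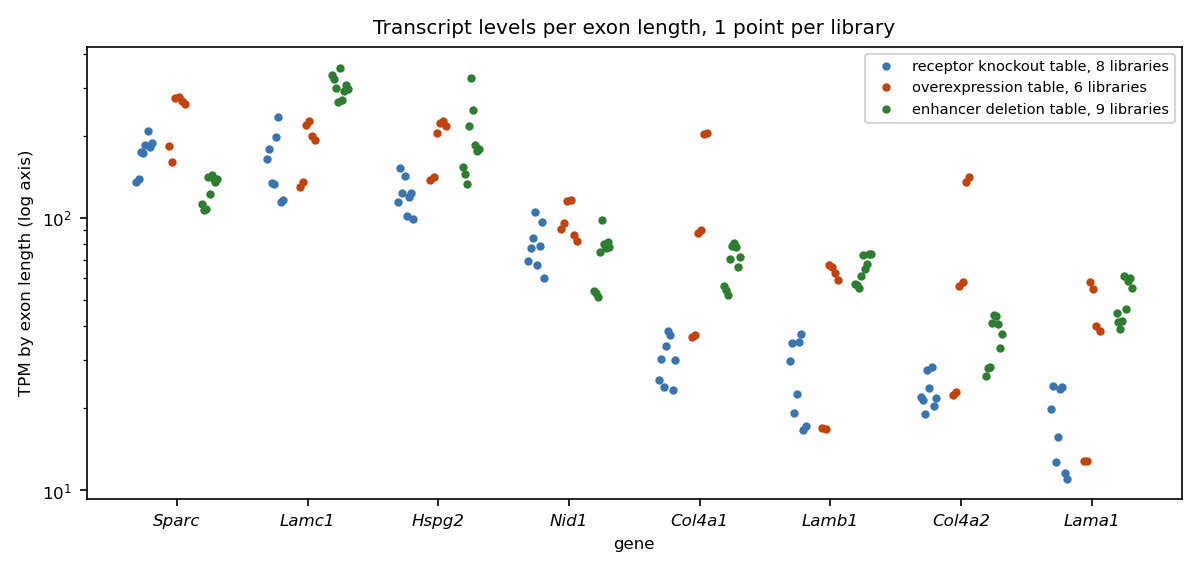
Level of each gene per exon length (TPM, log axis), 1 point per library, coloured by set of libraries. Sparc, Lamc1 and Hspg2 lie above Lama1, Lamb1, Col4a1 and Col4a2 in the knockout and enhancer sets, while in the overexpression set the 2 Rxrα-OE libraries put Col4a1, at 203.1 and 205.3 TPM, above Lamc1.

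In the knockout set the question was how the 8 genes stand after RA in cells labelled as knockouts of RARα, RXRα or both. The 3 laminin chain genes fell in RARX-DKO and no other member passed the test there. In Rarα-KO no member passed, and in Rxrα-KO only Sparc did, upward. The comparisons with wild type share the same 2 WT (RARX) libraries.

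Lama1, the α chain of laminin-111, had 41.1 and 39.0 CPM in RARX-DKO, 44.5 and 52.9 CPM in Rarα-KO and 86.8 and 92.2 CPM in Rxrα-KO, against 69.8 and 84.6 CPM in WT (RARX). Both RARX-DKO and both Rarα-KO libraries lay below both wild-type libraries, and both Rxrα-KO libraries lay above them. In RARX-DKO the log2 fold change of Lama1 was -0.95 (SE 0.16), with an adjusted p of 0.00788 in edgeR's quasi-likelihood test. In Rarα-KO it was -0.66 (SE 0.15, adjusted p = 0.0761) and in Rxrα-KO 0.21 (SE 0.15, adjusted p = 0.544).

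Lamb1, the β chain, had 60.7 and 62.5 CPM in RARX-DKO, 68.6 and 78.0 CPM in Rarα-KO and 133.1 and 147.3 CPM in Rxrα-KO, against 107.2 and 124.2 CPM in WT (RARX). Its order of groups was that of Lama1, again with no overlap with wild type. The log2 fold change of Lamb1 was -0.91 (SE 0.14, adjusted p = 0.00641) in RARX-DKO, -0.66 (SE 0.14, adjusted p = 0.0593) in Rarα-KO and 0.28 (SE 0.14, adjusted p = 0.363) in Rxrα-KO.

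Lamc1, the γ chain found in most laminins, had 346.4 and 350.2 CPM in RARX-DKO, 400.9 and 382.5 CPM in Rarα-KO and 625.3 and 766.0 CPM in Rxrα-KO, against 495.2 and 535.8 CPM in WT (RARX). Groups did not overlap, and the fold changes were smaller on the low side than for the other chains. The log2 fold change of Lamc1 was -0.57 (SE 0.14, adjusted p = 0.0481) in RARX-DKO, -0.40 (SE 0.14, adjusted p = 0.255) in Rarα-KO and 0.43 (SE 0.14, adjusted p = 0.12) in Rxrα-KO.

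For RARX-DKO the 3 called members of 8 stand beside 2.24% of all 16445 genes tested, and beside 1.19% called lower. For Rarα-KO the 0 of 8 stand beside 0.645% of all genes, with 106 genes called and 1805 at an unadjusted p under 0.05. DESeq2, and edgeR with those 2 groups alone or with no filter on low counts, each called Lama1 and Lamb1 lower in Rarα-KO. These fits called more genes in all. DESeq2 called 259 of 14842, the 2 groups alone 588 of 16206 and no filter 551 of 29832. The RARX-DKO calls depended on WT (RARX) replicate 2: all were lost in the fit without it, which leaves 1 wild-type library. Log2 fold changes in that fit were -0.80 for Lama1, -0.79 for Lamb1 and -0.50 for Lamc1. The call of Lamc1 was also lost without WT (RARX) replicate 1, either RARX-DKO library or either Rarα-KO library, with adjusted p up to 0.201 in these fits, and with the 2 groups alone in the fit (adjusted p = 0.0648).

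Rarα-KO and Rxrα-KO differed from each other at the laminin genes. In Rxrα-KO against Rarα-KO, Lama1 rose by 0.88 on the log2 scale (adjusted p = 0.00805), Lamb1 by 0.94 (adjusted p = 0.00391) and Lamc1 by 0.83 (adjusted p = 0.00537), 3 of 8 members beside 5.38% of all genes and 2.19% called higher. RARX-DKO against Rxrα-KO gave -1.16 for Lama1 (adjusted p = 0.00256), -1.19 for Lamb1 (adjusted p = 0.00149) and -0.998 for Lamc1 (adjusted p = 0.00257), the 3 members called, beside 3.5% of all genes and 1.48% called lower. RARX-DKO against Rarα-KO called no member and 0.0122% of all genes, with log2 fold changes of -0.28 for Lama1, -0.25 for Lamb1 and -0.17 for Lamc1 (adjusted p = 1 for each). DESeq2 called 19 genes in that comparison, and 563 had an unadjusted p under 0.05. Without Rarα-KO replicate 1 the Rxrα-KO against Rarα-KO call of Lama1 was lost (0.76, adjusted p = 0.0634), as was that of Lamc1 without Rarα-KO replicate 2 (0.80, adjusted p = 0.0719). Set against the 2 single knockout effects added together on the log2 scale, the RARX-DKO effect was more negative for all 8 members, by a difference from -0.05 for Hspg2 to -0.60 for Lamc1 and Col4a1, and none passed (adjusted p = 0.509 for Lamc1). Of all genes, 8.68% departed as low as Lamc1 or lower and 42.7% as low as Hspg2 or lower. The median departure of chromosome 8, where Col4a1 and Col4a2 lie, was 0.22. The members share libraries, so their directions are not separate observations. No gene in the table passed that test in edgeR (0% of 16445), with 1083 at an unadjusted p under 0.05 and 40 called by DESeq2.

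Neither collagen IV gene passed the test in any comparison of the knockout set. Col4a1, the α1 chain, had 64.1 and 81.9 CPM in RARX-DKO, 64.5 and 87.9 CPM in Rarα-KO and 109.7 and 109.8 CPM in Rxrα-KO, against 69.3 and 81.9 CPM in WT (RARX). Only the Rxrα-KO libraries stood clear of wild type, with a log2 fold change of 0.54 (SE 0.18, adjusted p = 0.138). Between mutants Col4a1 had 0.53 (adjusted p = 0.0994) in Rxrα-KO against Rarα-KO and -0.59 (adjusted p = 0.0872) in RARX-DKO against Rxrα-KO, with no overlap in either. These are the directions of the laminin genes, and with no filter on low counts Col4a1 passed in both. With no filter 1840 genes were called in the first comparison, against 885 with the filter. In the second 1366 were called, against 575 with the filter. Col4a2, the α2 chain that joins α1 in the common collagen IV trimer, had 49.3 and 52.9 CPM in RARX-DKO, 45.7 and 63.7 CPM in Rarα-KO and 59.9 and 74.1 CPM in Rxrα-KO, against 52.8 and 51.3 CPM in WT (RARX). Its log2 fold changes were -0.03 (SE 0.18), 0.07 (SE 0.18) and 0.36 (SE 0.18) in that order of mutants, with adjusted p from 0.335 to 0.972. Genes of chromosome 8, where both lie, had a median log2 deviation of 0.34 from the mean of all libraries in RARX-DKO replicate 2 and of -0.07 in RARX-DKO replicate 1, and the part of this in the collagen values was not tested.

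Sparc, a collagen-binding matricellular protein abundant in parietal endoderm, had 267.2 and 311.9 CPM in Rxrα-KO, 237.5 and 228.0 CPM in Rarα-KO and 251.8 and 260.6 CPM in RARX-DKO, against 186.3 and 189.5 CPM in WT (RARX). All 6 mutant libraries were above both wild-type libraries. In Rxrα-KO Sparc rose by 0.62 on the log2 scale (SE 0.13, adjusted p = 0.0256), 1 of 8 members beside 2.47% of all genes and 1.28% called higher. The call was lost without either WT (RARX) library or without Rxrα-KO replicate 2, with adjusted p from 0.144 to 0.274. Sparc had log2 fold changes of 0.31 (adjusted p = 0.4) in Rarα-KO and 0.45 (adjusted p = 0.105) in RARX-DKO. Nid1 (nidogen-1, which links laminin to collagen IV) had 245.0 and 152.1 CPM in RARX-DKO, 211.6 and 254.3 CPM in Rarα-KO and 178.7 and 217.7 CPM in Rxrα-KO, against 175.3 and 193.8 CPM in WT (RARX). The RARX-DKO libraries lay on both sides of wild type and both Rarα-KO libraries above it, and no mutant passed (log2 fold changes of 0.11, 0.34 and 0.10 in that order, adjusted p from 0.593 to 0.879). Hspg2 (perlecan, a heparan sulfate proteoglycan) had 515.9 to 712.5 CPM in the 6 mutant libraries, against 592.8 and 784.9 CPM in WT (RARX), with overlap in every mutant and log2 fold changes from -0.25 to -0.03 (adjusted p from 0.558 to 0.972).

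**Figure D2:**
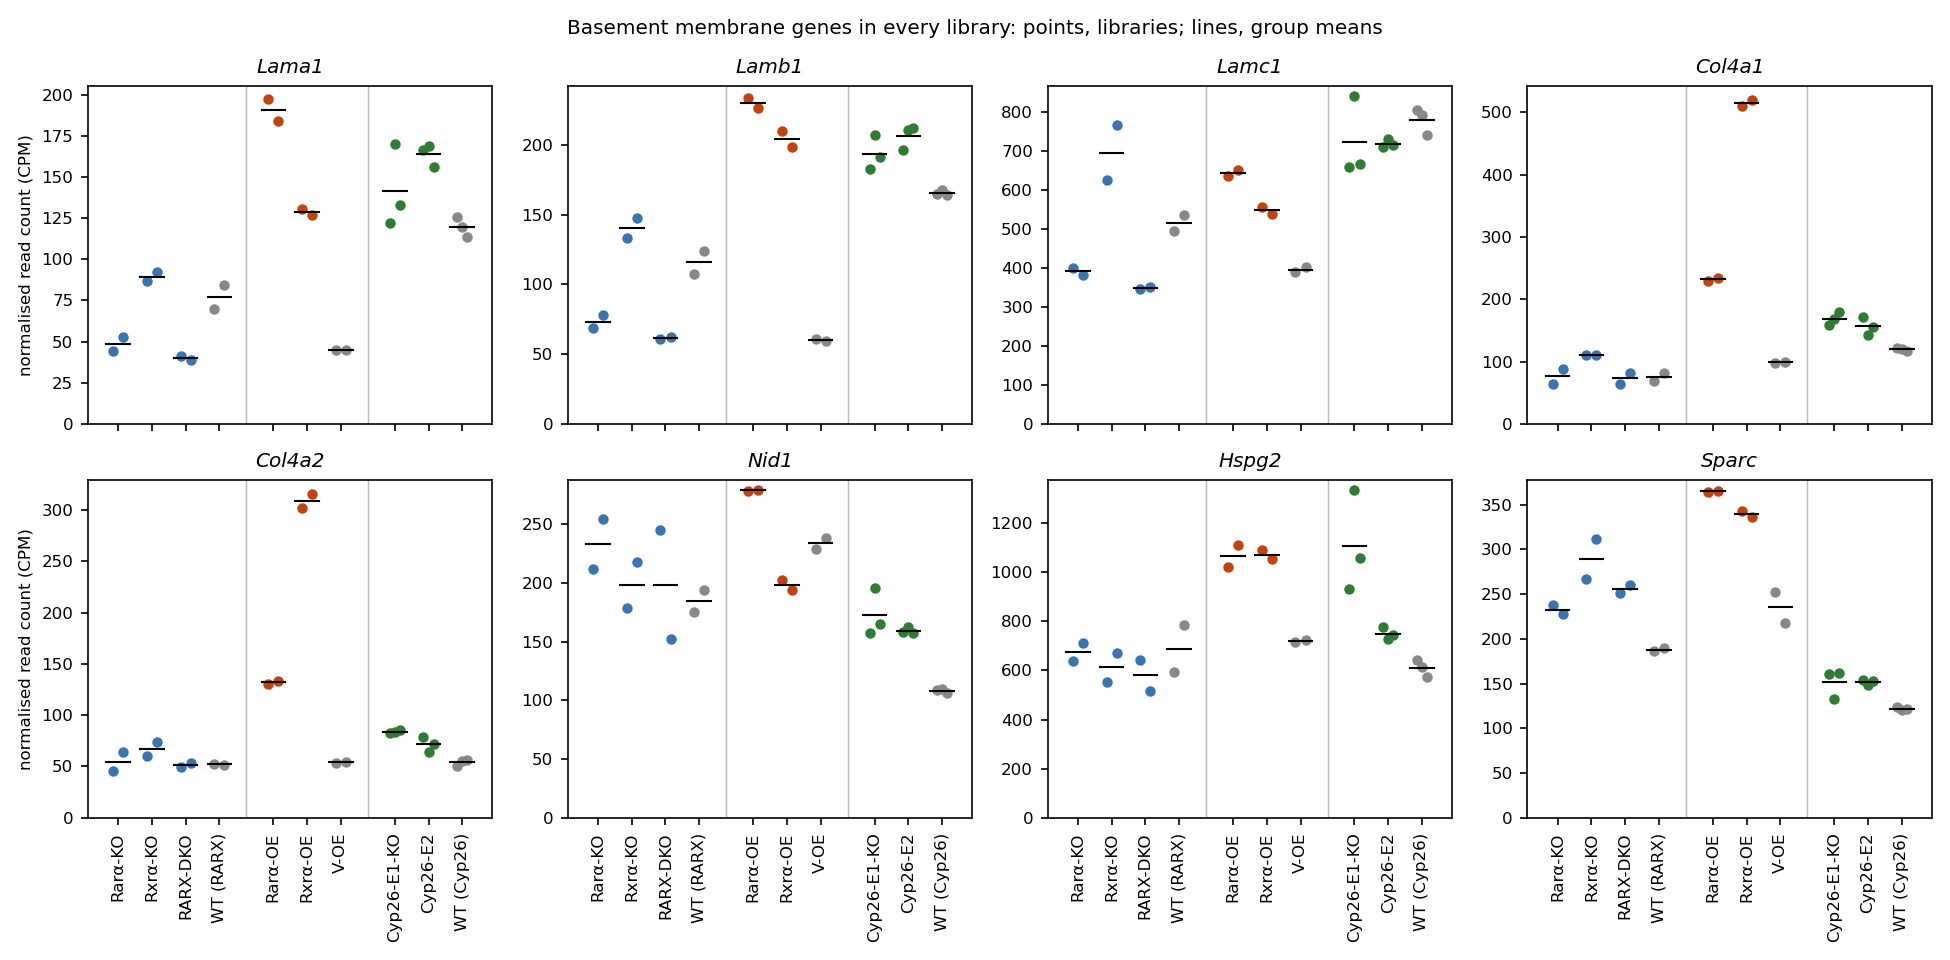
Normalised read counts (CPM) of the 8 genes in every library, with group means as lines and each set scaled on its own. Lama1, Lamb1 and Lamc1 are lowest in RARX-DKO within the knockout set, and Col4a1 and Col4a2 are highest in Rxrα-OE within the overexpression set.

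Every member changed in both overexpression lines, with different profiles. In Rarα-OE against V-OE all 8 rose, most of all Lama1 and Lamb1. In Rxrα-OE against V-OE 7 rose, most of all Col4a1 and Col4a2, and Nid1 fell. Many genes moved here: 28.6% of all 16914 genes tested were called in Rarα-OE (14.7% higher) and 60.2% in Rxrα-OE (30.9% higher and 29.3% lower), so 8 calls of 8 are to be read against those shares. Both comparisons use the same 2 V-OE libraries.

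Lama1 had 197.3 and 184.3 CPM in Rarα-OE and 130.4 and 126.7 CPM in Rxrα-OE, against 44.8 and 44.7 CPM in V-OE. No groups overlapped. Lama1 rose 4.27-fold in Rarα-OE (log2 fold change 2.09, SE 0.06, adjusted p = 4.07e-33), a rise matched or exceeded by 0.976% of all genes, and 2.87-fold in Rxrα-OE (1.52, SE 0.07, adjusted p = 2.64e-27).

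Lamb1 had 233.4 and 226.7 CPM in Rarα-OE and 210.1 and 198.7 CPM in Rxrα-OE, against 60.6 and 59.7 CPM in V-OE. It rose 3.83-fold in Rarα-OE (1.94, SE 0.06, adjusted p = 8.46e-34) and 3.39-fold in Rxrα-OE (1.76, SE 0.06, adjusted p = 6.08e-33). Lamc1 had 635.8 and 652.0 CPM in Rarα-OE and 557.2 and 539.8 CPM in Rxrα-OE, against 389.4 and 401.6 CPM in V-OE. Its rise was smaller than that of the other chains, 1.63-fold (log2 0.70, SE 0.04) and 1.39-fold (log2 0.47, SE 0.04) in the 2 lines. Per length the excess of Lamc1 over Lamb1 was 3.36-fold in Rarα-OE and 3.22-fold in Rxrα-OE, against 7.88-fold in V-OE. With 2 libraries a group an exact permutation test of this ratio, two-sided, cannot reach 0.05, and it gave p = 0.33, its smallest possible value.

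Col4a1 had 510.7 and 519.3 CPM in Rxrα-OE and 229.4 and 234.4 CPM in Rarα-OE, against 98.4 and 99.4 CPM in V-OE. It rose 5.2-fold in Rxrα-OE (2.38, SE 0.05, adjusted p = 8.31e-43) and 2.34-fold in Rarα-OE (1.23, SE 0.05, adjusted p = 1.63e-27). Col4a2 had 301.8 and 315.8 CPM in Rxrα-OE and 130.2 and 133.5 CPM in Rarα-OE, against 53.8 and 54.7 CPM in V-OE. It rose 5.7-fold in Rxrα-OE (2.51, SE 0.06, adjusted p = 2.29e-40) and 2.43-fold in Rarα-OE (1.28, SE 0.06, adjusted p = 1.82e-24). Only 2.82% of all genes rose by as much as Col4a2 in Rxrα-OE. Per length the ratio of Col4a1 to Col4a2 was 1.48 in Rxrα-OE and 1.56 in Rarα-OE, against 1.62 in V-OE.

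Hspg2 had 1020.5 and 1109.5 CPM in Rarα-OE and 1089.0 and 1053.5 CPM in Rxrα-OE, against 716.3 and 725.2 CPM in V-OE, rises of 1.48-fold and 1.49-fold. Sparc had 364.5 and 365.6 CPM in Rarα-OE and 343.1 and 336.4 CPM in Rxrα-OE, against 252.6 and 217.8 CPM in V-OE, rises of 1.55-fold and 1.45-fold. Nid1 had 278.9 and 279.4 CPM in Rarα-OE and 202.5 and 194.1 CPM in Rxrα-OE, against 229.1 and 238.5 CPM in V-OE. Nid1 thus rose in one line (log2 0.25, SE 0.05, adjusted p = 1.84e-05) and fell in the other (log2 -0.24, SE 0.05, adjusted p = 1.87e-05). Both Nid1 changes are under 1.5-fold and had the same direction in every alternative run.

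In Rxrα-OE set directly against Rarα-OE the collagen IV genes were higher and the 3 laminin genes among the members lower. Col4a1 was higher by 1.15 (SE 0.04, adjusted p = 2.34e-29) and Col4a2 by 1.23 (SE 0.05, adjusted p = 9.97e-28) on the log2 scale. Lama1 was lower by 0.57 (log2 -0.57, SE 0.06, adjusted p = 8.61e-13), and log2 fold changes were -0.49 for Nid1, -0.23 for Lamc1 and -0.17 for Lamb1 (adjusted p = 0.0035). Sparc (-0.10, adjusted p = 0.0703) and Hspg2 (0.01, adjusted p = 0.875) did not pass. Laminin genes outside the 8 went both ways, with Lamb2 (0.83) and Lama5 (0.29) higher and Lama3 (-0.69) lower. The 6 calls stand beside 47.2% of all genes, 23.8% higher and 23.4% lower. Lamb1 lost its call with library totals in place of TMM (adjusted p = 0.0501), with DESeq2 (adjusted p = 0.0558) and without Rxrα-OE replicate 2 (adjusted p = 0.11).

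**Figure D3:**
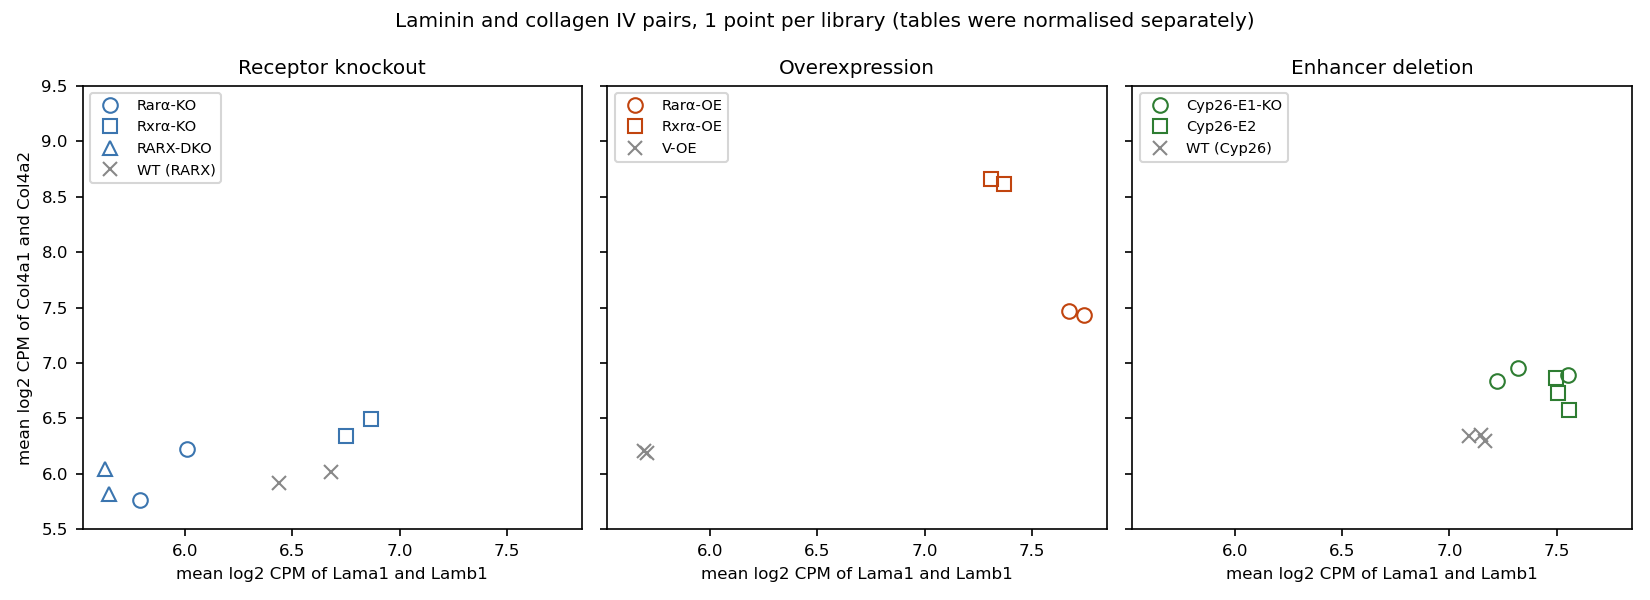
Mean log2 CPM of Lama1 and Lamb1 (x axis) against that of Col4a1 and Col4a2 (y axis), 1 point per library, in the 3 sets, which were scaled separately. In the overexpression set the Rxrα-OE libraries lie highest on the collagen axis and the Rarα-OE libraries farthest right on the laminin axis, and in the knockout set RARX-DKO and Rarα-KO lie left of WT (RARX).

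In the enhancer set most members were modestly higher in both mutants. In Cyp26-E1-KO 6 of 8 rose, led by Hspg2, and in Cyp26-E2 6 of 8 rose, led by Nid1, while Lamc1 passed in neither. Of all 18768 genes tested, 25.3% were called in Cyp26-E1-KO (13.1% higher) and 17.5% in Cyp26-E2 (9.28% higher). Both use the same 3 WT (Cyp26) libraries.

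Nid1 had 157.2, 195.7 and 165.1 CPM in Cyp26-E1-KO and 158.0, 163.0 and 157.4 CPM in Cyp26-E2, against 108.8, 109.3 and 106.2 CPM in WT (Cyp26). All mutant libraries were above all wild-type ones, with rises of 1.6-fold (log2 0.68, SE 0.08, adjusted p = 2.15e-05) and 1.48-fold (log2 0.56, SE 0.08, adjusted p = 0.000192). Hspg2 had 932.1, 1335.6 and 1057.9 CPM in Cyp26-E1-KO and 776.1, 727.5 and 743.1 CPM in Cyp26-E2, against 640.7, 615.1 and 571.4 CPM in WT (Cyp26). Hspg2 rose 1.82-fold in Cyp26-E1-KO (log2 0.86, SE 0.11, adjusted p = 4.27e-05) and had 0.30 (SE 0.10, adjusted p = 0.0667) in Cyp26-E2. Cyp26-E2 against Cyp26-E1-KO gave -0.57 for Hspg2 (SE 0.10, adjusted p = 0.00711), the only member called in that comparison, beside 4.49% of all genes and 2.46% called lower. Without Cyp26-E1-KO replicate 2, in which Hspg2, Lama1, Lamb1, Lamc1 and Nid1 were highest and Sparc lowest of its group, that comparison called Lama1 and Col4a2 as well as Hspg2.

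Col4a1 had 159.1, 168.4 and 178.7 CPM in Cyp26-E1-KO and 171.3, 142.4 and 155.4 CPM in Cyp26-E2, against 122.2, 120.4 and 116.9 CPM in WT (Cyp26). Col4a2 had 82.3, 83.2 and 85.9 CPM in Cyp26-E1-KO and 79.0, 63.6 and 72.0 CPM in Cyp26-E2, against 50.7, 55.2 and 56.3 CPM in WT (Cyp26). Neither collagen gene overlapped wild type in either mutant, with log2 fold changes of 0.49 for Col4a1 and 0.63 for Col4a2 in Cyp26-E1-KO and 0.38 and 0.40 in Cyp26-E2. Sparc had 160.8, 132.8 and 161.8 CPM in Cyp26-E1-KO and 153.7, 148.7 and 152.8 CPM in Cyp26-E2, against 123.8, 120.2 and 121.9 CPM in WT (Cyp26). Sparc rose 1.24-fold in each (adjusted p = 0.00687 in Cyp26-E1-KO and 0.0101 in Cyp26-E2).

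Lama1 had 121.9, 170.0 and 133.2 CPM in Cyp26-E1-KO and 166.6, 168.7 and 155.8 CPM in Cyp26-E2, against 125.7, 119.5 and 113.4 CPM in WT (Cyp26). Only the Cyp26-E2 libraries stood clear of wild type, and Lama1 rose there by 0.45 on the log2 scale (SE 0.10, adjusted p = 0.00644). In Cyp26-E1-KO it had 0.25 (SE 0.10, adjusted p = 0.0909). Lamb1 had 182.7, 207.0 and 191.6 CPM in Cyp26-E1-KO and 196.5, 210.6 and 212.0 CPM in Cyp26-E2, against 164.4, 167.7 and 163.8 CPM in WT (Cyp26), rises of 0.23 and 0.32 on the log2 scale. The Cyp26-E1-KO call of Lamb1 was lost without any 1 of the wild-type libraries, with adjusted p from 0.053 to 0.0708. Lamc1 had 660.6, 842.5 and 667.2 CPM in Cyp26-E1-KO and 710.4, 731.6 and 716.8 CPM in Cyp26-E2, against 806.0, 793.9 and 742.6 CPM in WT (Cyp26). The Cyp26-E2 libraries were all below wild type, with a log2 fold change of -0.12 (SE 0.09, adjusted p = 0.406). Per length the ratio of Lamc1 to Lamb1 was 4.45 in Cyp26-E1-KO and 4.18 in Cyp26-E2, against 5.66 in WT (Cyp26), with no overlap. An exact permutation test, two-sided, gave 0.1 for each, the smallest p that 3 libraries against 3 allow. Ratios between chains were tested in 40 comparisons in all.

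**Figure D4:**
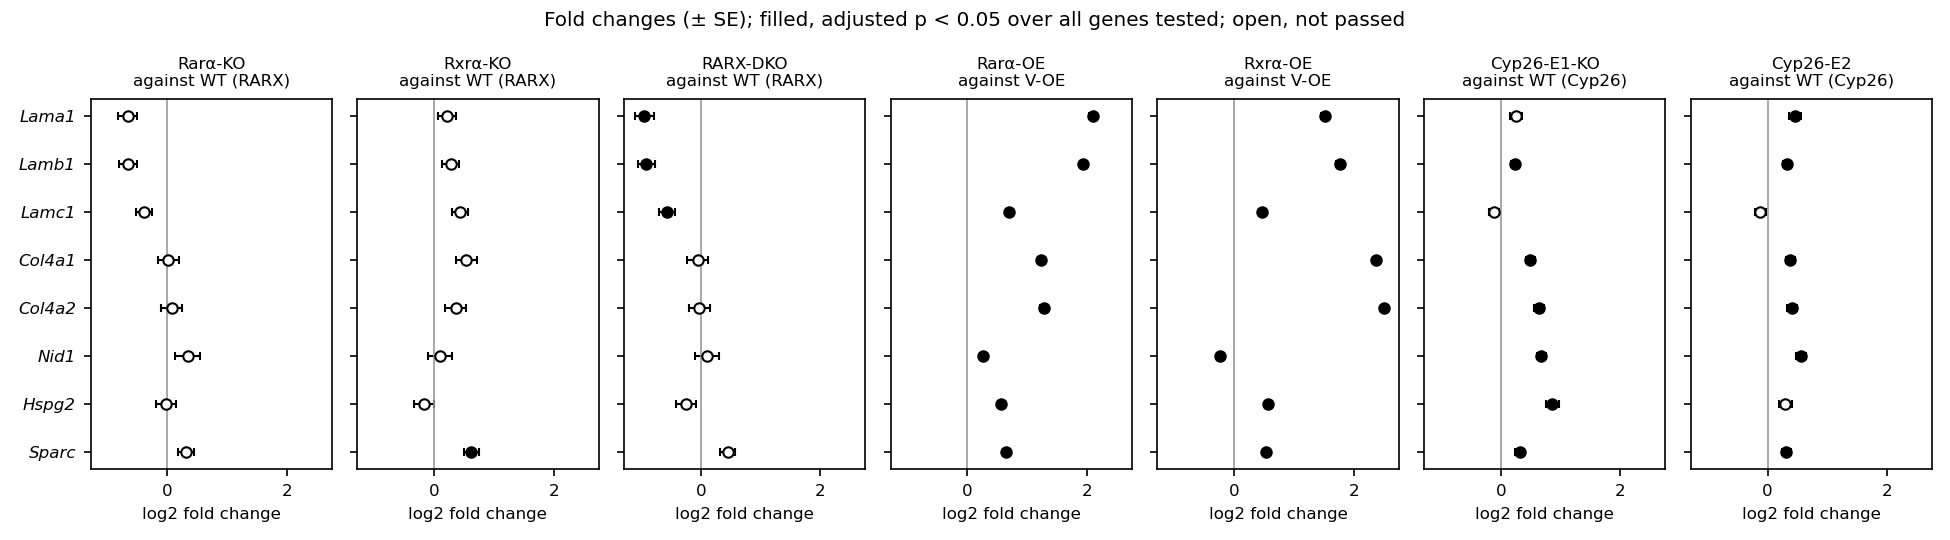
Log2 fold changes (points) with standard errors (bars) of the 8 genes in 7 comparisons with controls, filled where the adjusted p was under 0.05 over all genes tested. Changes in the enhancer set, up to 0.86, are smaller than those of Lama1, Lamb1, Col4a1 and Col4a2 in the overexpression set, up to 2.51.

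Across all 23 libraries, each set centred on its own mean, 2 pairs moved most closely together. Pearson's r of log2 CPM was 0.98 for Col4a1 with Col4a2 and 0.98 for Lama1 with Lamb1. It was 0.83 for Lamc1 with either Lama1 or Lamb1, but within the 9 enhancer libraries it was 0.11 with Lama1 and -0.19 with Lamb1. Lamc1 had 0.943 with Lama1 and 0.964 with Lamb1 within the knockout libraries, and 0.994 and 0.967 within the overexpression libraries. In the knockout, overexpression and enhancer sets, Col4a1 with Col4a2 had 0.854, 0.9999 and 0.961. Lama1 with Lamb1 had 0.995, 0.982 and 0.897 in that order of sets. Nid1 had r from -0.02 to 0.21 with the laminins and collagens over 23 libraries and 0.64 with Hspg2. Within the enhancer libraries alone Nid1 had 0.91 with Col4a1, 0.88 with Col4a2, 0.89 with Lamb1 and 0.77 with Lama1, but -0.25 with Lamc1. Libraries share groups and scaling, so these values describe the set. Of 10032 genes with a mean log2 CPM of at least 3, those most like the mean of the 8 members over the 23 libraries were Dab2 (r = 0.95), an endocytic adaptor of primitive endoderm, Podxl (0.94), a sialomucin, Phldb2 (0.94), Bmp6 (0.94), a secreted ligand of the BMP family, Fam129a (0.92), Aco1 (0.91), Lama5 (0.90), a laminin α chain, Clic4 (0.90), Sox17 (0.89), an endoderm transcription factor, and Mgat5 (0.89). Within single sets the likeness was lower for some, with r of 0.51 for Sox17 in the enhancer libraries and of 0.56 for Clic4 and 0.68 for Aco1 in the knockout libraries. Dab2 had 30.1 and 33.4 CPM in Rarα-OE and 47.2 and 47.7 CPM in Rxrα-OE, against 2.17 and 4.69 CPM in V-OE.

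Markers of primitive and parietal endoderm moved in many of the same comparisons. Of 15 tested in RARX-DKO against WT (RARX), 0 rose and 6 fell, beside 2.24% of all genes called and 1.19% called lower, led by Plat (log2 fold change -2.74), Gata4 (-2.35) and Gata6 (-1.93), with a list median of -1.43 beside 0.01 over all genes. The count was 1 without WT (RARX) replicate 2, 2 without WT (RARX) replicate 1 and 3 without RARX-DKO replicate 1. Gata6, a GATA factor that specifies primitive endoderm, had 12.04 and 14.7 CPM in RARX-DKO, 18.6 and 24.0 CPM in Rarα-KO and 70.1 and 75.2 CPM in Rxrα-KO, against 50.7 and 51.1 CPM in WT (RARX). Gata6 was the only one of the list called in Rarα-KO (-1.25, adjusted p = 0.0096), and none of 15 passed in Rxrα-KO. In Rarα-OE 13 of 15 rose and none fell, beside 28.6% of all genes called, led by Krt18 (3.83), Gata4 (3.51) and Dab2 (3.16), with a median of 2.37. In Rxrα-OE 12 rose and 2 fell, beside 60.2%, led by Sox17 (4.39), Krt18 (4.07) and Foxa2 (3.95), with Fst (-2.74) and Vim (-0.45) falling. Gata4 had 37.0 and 35.2 CPM in Rarα-OE and 25.9 and 29.1 CPM in Rxrα-OE, against 3.26 and 3.06 CPM in V-OE. In the enhancer set 5 of 16 rose and 2 fell in Cyp26-E1-KO, beside 25.3% of all genes called, and 9 rose and 0 fell in Cyp26-E2, beside 17.5%. Dab2 rose in both (0.99 and 1.01), while Gata4 fell in Cyp26-E1-KO (-0.34, adjusted p = 0.015).

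Other basement membrane components were called in different numbers in the 3 sets, and each count is to be read against the share of all genes called. Of 25 listed, 16 were tested in the knockout and overexpression sets and 22 in the enhancer set. In Rarα-OE 9 of 16 rose and 0 fell, beside 28.6% of all genes called, led by Lama4 (1.46), a laminin α chain of vessels, Frem2 (1.09), a Fraser complex protein, and Tinagl1 (0.92). In Rxrα-OE 12 of 16 rose and 3 fell, beside 60.2%, led by Frem2 (4.50), Npnt (2.69), which encodes nephronectin, an integrin ligand, and Col4a5 (2.37), a further collagen IV chain. The list medians were 0.46 in Rarα-OE and 1.01 in Rxrα-OE, beside 0.00 over all genes in each. In Cyp26-E1-KO 7 of 22 rose and 3 fell, beside 25.3%, with Col4a5 lower (-1.41) and Fras1 (0.88) and Npnt (0.72) higher. In Cyp26-E2 1 of 22 rose, Lama3 (0.79), and 2 fell, Tinagl1 (-0.82) and Agrn (-0.37), beside 17.5%. Among the knockouts, Fbln1 fell in RARX-DKO (-0.67, adjusted p = 0.04), Col18a1 rose in Rxrα-KO (0.52, adjusted p = 0.046) and none passed in Rarα-KO.

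Of 16 genes of collagen and laminin assembly and secretion tested, 7 rose and 0 fell in Rarα-OE, beside 28.6% of all genes called, and 10 rose and 4 fell in Rxrα-OE, beside 60.2%. In Cyp26-E1-KO 1 rose and 4 fell, beside 25.3%, and in Cyp26-E2 0 rose and 3 fell, beside 17.5%. With both directions counted together, these shares of the list were near those of all genes. P4ha2, a prolyl 4-hydroxylase subunit, rose by 1.27 in Rarα-OE and 1.57 in Rxrα-OE. Serpinh1, which encodes the collagen chaperone HSP47, had 167 to 171 CPM in Rarα-OE and 202 to 210 CPM in Rxrα-OE, against 72.3 to 73.9 CPM in V-OE. In the enhancer set Serpinh1 had 63.1 to 79.0 CPM in Cyp26-E1-KO and 86.5 to 97.6 CPM in Cyp26-E2, against 124 to 129 CPM in WT (Cyp26). It fell by 0.78 and by 0.45 there on the log2 scale (adjusted p = 1.4e-05 and 0.002), where Col4a1 and Col4a2 rose. P4ha2 (-0.80) and Pxdn (-0.52), which encodes peroxidasin, the enzyme that cross-links collagen IV, also fell in Cyp26-E1-KO. None of the 16 passed in Rarα-KO, Rxrα-KO or RARX-DKO against wild type.

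Of 17 receptors of the basement membrane tested, 9 rose and 1 fell in Rarα-OE, beside 28.6% of all genes called, with Ddr2 (1.03), a collagen receptor kinase, and Itga7 (1.01) and Itga3 (0.98), laminin-binding integrin α chains, changing most. In Rxrα-OE 11 rose and 3 fell, beside 60.2%, with Itga6, another laminin-binding α chain, lower by 1.44 (log2 -1.44) and Itga1, a collagen-binding α chain, higher by 1.28. In Cyp26-E1-KO 9 rose and 1 fell, beside 25.3%, with Itga1 (1.31), Itgb4 (0.71) and Itgb5 (0.58) changing most, and in Cyp26-E2 2 rose and 1 fell, beside 17.5%. Of 16 tested in the knockout set, none passed against wild type. Among matrix proteases and inhibitors, of 11 tested, 6 rose, led by Mmp9 (2.88), and 1 fell in Rarα-OE, beside 28.6%. In Rxrα-OE 7 rose, led by Mmp15 (3.33) and Plau (3.31), and 3 fell, beside 60.2%. Of 12 tested in the enhancer set, 3 rose and 2 fell in Cyp26-E1-KO, beside 25.3%. In Cyp26-E2 3 rose and 1 fell, beside 17.5%. Against WT (RARX) 1 of 11 fell in Rarα-KO, beside 0.645%, and none passed in Rxrα-KO. In RARX-DKO 1 rose and 1 fell, beside 2.24%.

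Markers of other cell types moved with some of these comparisons, and their part in the values of the 8 genes was not tested. Counts of markers called are to be read against the shares of all genes called, 28.6% in Rarα-OE, 60.2% in Rxrα-OE, 25.3% in Cyp26-E1-KO, 17.5% in Cyp26-E2 and at most 2.47% in a knockout against wild type. In Rxrα-OE the visceral endoderm markers, with 6 of 10 called, and the trophoblast markers, with 4 of 7, were near the share of all genes called in either direction. The 6 visceral endoderm calls were all upward (list median 1.22), beside 30.9% of all genes called higher. The summed level of 8 pluripotent cell markers was 2749 to 2771 CPM in Rxrα-OE and 7208 to 7219 CPM in Rarα-OE, against 8172 to 8326 CPM in V-OE. It was 6803 to 7549 CPM in RARX-DKO, 6736 to 8020 CPM in Rarα-KO and 6217 to 6349 CPM in Rxrα-KO, against 5612 to 5699 CPM in WT (RARX). It was 2310 to 3187 CPM in Cyp26-E1-KO and 2740 to 2900 CPM in Cyp26-E2, against 3216 to 3321 CPM in WT (Cyp26). Single markers did not all follow the sum. Of the 8, all tested, 2 rose and 6 fell in Rarα-OE and 0 rose and 7 fell in Rxrα-OE. In Cyp26-E1-KO 2 rose and 3 fell, and in Cyp26-E2 0 rose and 3 fell. Against WT (RARX) 2 rose in RARX-DKO, 1 in Rarα-KO and 2 in Rxrα-KO, with none falling. The 13 visceral endoderm markers summed to 485 to 494 CPM in Rarα-OE and 807 to 808 CPM in Rxrα-OE, against 261 to 279 CPM in V-OE, with 5 of 10 tested rising and 1 falling in Rarα-OE and 6 rising and 0 falling in Rxrα-OE, Cubn (3.95 in Rarα-OE and 3.82 in Rxrα-OE) most of all. In the knockout set they summed to 275 to 312 CPM in RARX-DKO, 265 to 273 CPM in Rarα-KO and 504 to 660 CPM in Rxrα-KO, against 342 to 373 CPM in WT (RARX), and in the enhancer set to 839 to 1086 CPM in Cyp26-E1-KO and 652 to 663 CPM in Cyp26-E2, against 484 to 496 CPM in WT (Cyp26). These sums do not stand for the whole list. In Cyp26-E1-KO 2 of 10 tested rose and 5 fell (median log2 fold change -0.06), with Hnf4a (-3.63), Ihh (1.61) and Lrp2 (1.31) changing most, and in Cyp26-E2 1 rose, Lrp2 (0.57), and 1 fell, Hnf4a (-1.71). In Rxrα-KO 2 of 9 rose, Lrp2 (0.91) and Apoe (0.75), and 1 fell, Apom (-1.26), with a median of -0.40, while in RARX-DKO 0 rose and 2 fell and in Rarα-KO none passed. Fibroblasts also make collagen IV and SPARC. Of 11 fibroblast markers listed 5 were tested in each set, and 3 of these rose in both overexpression lines: Pdgfrb (1.01 in Rarα-OE and 2.24 in Rxrα-OE), Col1a1 (0.87 and 0.80) and Col5a1 (0.51 and 0.41). Fn1, which endoderm also makes and which carried nearly all of the list's sum of 793 to 1394 CPM, fell in Rxrα-OE (-0.59). Pdgfrb fell in Rxrα-KO (-1.79), in Cyp26-E1-KO (-0.40) and in Cyp26-E2 (-0.32). Lum, Postn and Col3a1 were at most 0.13, 0.0665 and 0.306 CPM in any library and Dcn at most 0.423 CPM. The 8 trophoblast markers summed to 76.6 to 81.0 CPM in Rarα-OE and 107.1 to 110.2 CPM in Rxrα-OE, against 46.4 to 47.3 CPM in V-OE. Of 7 tested, 5 rose and 0 fell in Rarα-OE (median 1.20), and 3 rose and 1 fell in Rxrα-OE (median -0.06), where Cdx2 (4.77) and Krt7 (4.70) rose and Eomes fell (-0.72). They summed to 91.8 to 96.2 CPM in Cyp26-E1-KO and 81.8 to 89.7 CPM in Cyp26-E2, against 54.7 to 57.9 CPM in WT (Cyp26). There 4 of 7 rose in Cyp26-E1-KO (median 0.90) and 3 in Cyp26-E2 (median 0.84), with none falling, among them Hand1 (2.35 and 1.59) and Gata3 (2.21 and 1.57). In the knockout set they summed to 30.2 to 67.7 CPM and none of 6 tested passed against wild type. The 6 endothelial markers summed to 82.5 to 84.3 CPM in Rxrα-OE, against 189 to 196 CPM in V-OE, with 2 of 5 tested rising and 2 falling. Of 6 tested in the enhancer set, 2 rose and 2 fell in Cyp26-E1-KO and 2 rose in Cyp26-E2.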

How the data were processed

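The authors deposited raw gene counts in 3 tables, 1 for each set of libraries. Per the submitters' processing notes the build was mm10; the tools they list, with no role, are MACS2 2.2.7.1, HTSeq 0.9.1, HISAT2 2.1.0, Bowtie2 2.3.1 and DESeq2 1.18.1, and the annotation release and strand setting are not given in the sources used here. The 4C and the ChIP and input samples were not analysed here. Columns were matched to samples by title, apart from the codes of the enhancer mutants.

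Gene identifiers of the enhancer table were matched to symbols through GENCODE vM21 (52403 of 52636). Each table was fitted as a whole in edgeR 4.0.16 (R 4.3.3), scaled by TMM and filtered by filterByExpr (minimum count 10), with robust quasi-likelihood F tests. Calls needed a Benjamini-Hochberg adjusted p under 0.05 over all genes tested. CPM are counts over TMM-scaled library sizes, and TPM divide by GENCODE exon length. Standard errors divide the size of the log2 fold change by the root of F. The fitting code was run on counts simulated from the means and spread of these data, so that run does not test the model itself. Ratios were tested by exact permutation in scipy 1.17.1. Alternatives were DESeq2 1.42.0, other scalings, no filter, 2 groups alone, a replicate block, a 1.5-fold minimum and each library left out. For called members the median change of the gene's chromosome was also subtracted, with no test. In fits without a library, a lone sample of a group is assumed to vary like the other groups.

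Members and gene lists were chosen with earlier results of these data known. By rule, the text names the 8 members, up to 3 called genes per list with the largest change in a comparison, the 10 most similar genes, the targeted genes and primitive endoderm regulators. Members of a list named beyond these were chosen after their values were seen. Depth limits precision to counting error at low levels.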

Additional observations from a re-analysis of the deposited data

How the results depend on the processing

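No called member changed direction under any alternative run. For 45 calls of single members, 689 alternatives were run in all, and 643 were labelled the same. Another 44 kept direction and lost the call (21 of these only through the 1.5-fold minimum), and 2 moved in size. The alternative that subtracts the median change of the gene's chromosome runs no test. It was labelled the same where the value shifted by less than its standard error, so the 643 are not all calls that were kept. With the 1.5-fold minimum, members called numbered 4 in Rxrα-OE against V-OE, 2 in Rxrα-OE against Rarα-OE, 3 in Cyp26-E1-KO against WT (Cyp26), 0 in Cyp26-E2 against WT (Cyp26) and 0 in Cyp26-E2 against Cyp26-E1-KO. In Rarα-KO against WT (RARX), 2 members were called with no filter, with the 2 groups alone and with DESeq2. In Rxrα-KO against WT (RARX), 2 were called with no filter and with DESeq2. With each library left out, members called ranged from 0 to 2 in Rarα-KO, 0 to 1 in Rxrα-KO and 0 to 3 in RARX-DKO, each against WT (RARX), and from 1 to 3 in Cyp26-E2 against Cyp26-E1-KO. By Spearman's rho 6 of the 10 most similar genes were shared with the list by Pearson's r. The cause was not tested for any of these.

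Replicate numbers did not pair the libraries (correlations of same-numbered libraries from -0.21 to 0.12 in the knockout set, -0.01 to 0.01 in the overexpression set and -0.06 to 0.11 in the enhancer set). With the replicate block 2 members, not 3, were called in RARX-DKO against WT (RARX), since Lamc1 had an adjusted p of 0.0706, and counts in the other comparisons did not change.

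Counts over all genes, on which the shares given as background rest, also moved: in RARX-DKO against WT (RARX) 368 genes were called, and 981 with no filter; in Rarα-KO 106, and 588 with the 2 groups alone; in Rxrα-KO 407, and 1084 with no filter; in Rarα-OE 4829, and 2416 with DESeq2; in Cyp26-E2 3280, and 5731 with the 2 groups alone, and 1320 with the 1.5-fold minimum. In RARX-DKO against Rxrα-KO 575 were called, and 30 with the 2 groups alone. With each library left out the count ranged from 32 to 476 in RARX-DKO, 8 to 253 in Rarα-KO and 21 to 660 in Rxrα-KO, each against WT (RARX), 111 to 1391 in Rxrα-KO against Rarα-KO, 174 to 879 in RARX-DKO against Rxrα-KO, 1978 to 5776 in Cyp26-E2 against WT (Cyp26) and 310 to 1852 in Cyp26-E2 against Cyp26-E1-KO. Library totals in place of TMM moved the median of all genes by 0.10 in Rxrα-OE against V-OE. In Rxrα-KO against Rarα-KO they moved it from 0.01 to -0.10. The share of calls that were higher went from 51.6% to 39.7% in Rxrα-KO against WT (RARX). It went from 40.7% to 25.8% in Rxrα-KO against Rarα-KO and from 45.1% to 60.2% in Cyp26-E2 against Cyp26-E1-KO.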
